A study of Homo sapiens with 16 samples.

Results

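The genes that the PERK arm of the unfolded protein response acts on through ATF4 and CHOP were followed in LNCaP, an established line of human prostate cancer cells, in which the parallel IRE1α-XBP1s arm had been suppressed. The 35 genes were named from the known pathway and matched by symbol to Ensembl genes (GRCh38), giving 35 of 58051 genes in the table. The matching uses no measured value, but the genes were chosen with earlier results of these data known. They comprised 8 transcription factors, 5 feedback and stress regulators, 10 enzymes of amino acid metabolism, 7 amino acid transporter subunits and 5 genes for secreted factors, a receptor and tRNA export.

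RNA-seq libraries came from 4 groups of 4. Cells received either Allstar control siRNA (siCtrl) or an siRNA against XBP1 (siXBP1), or else were given DMSO (Vehicle) or 10 µM MKC8866, an inhibitor of the IRE1α RNase, for 24 h. Every group, controls included, was then stressed with thapsigargin (30 nM, 3 h), which blocks the calcium pump of the ER, so that these data hold no unstressed cells and the induction of the genes by stress itself was not measured here. The labels give passage 20 for all libraries and do not say whether replicates came from separate cultures, so that p-values measure the spread between these samples, which may be technical.

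PERK (encoded by EIF2AK3) is a kinase of the ER membrane. When unfolded proteins accumulate, it phosphorylates eIF2α, which slows translation in general while the mRNA of the transcription factor ATF4 is translated more. ATF4 activates genes for amino acid uptake and synthesis together with that for CHOP (DDIT3), a further transcription factor known for its part in ER stress-induced cell death, and GADD34 (PPP1R15A) closes the loop by dephosphorylating eIF2α. Because ATF4 is controlled largely at translation, its mRNA level does not give the amount of protein, and neither ATF4 protein nor eIF2α phosphorylation is part of these data.

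ATF4 binds DNA with C/EBP partners at composite elements, and the promoters of the genes were searched for the octamer TTGCATCA and for its looser form TTNCATCA on both strands. The windows of RefSeq (GRCh38.p14) run from 250 bases before to 50 after a start site, and 28 of the 35 genes had at least 1, with 47 windows between them. Below are 30-base stretches of 9 of these promoters, shown because they carry the matches in genes with different responses. Each is written 5′ to 3′ in the direction of its gene, and capitals mark the match. In the first 6 it is the exact octamer, which reads TGATGCAA where it lies on the other strand, and in ATF3, SLC7A1 and ASNS it is the looser form, on the other strand.
CEBPG, chr19:33374060-33374089, + strand: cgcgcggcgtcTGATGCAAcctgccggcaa
JDP2, chr14:75427995-75428024, + strand: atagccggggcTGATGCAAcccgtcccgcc
SLC1A5, chr19:46784893-46784922, - strand: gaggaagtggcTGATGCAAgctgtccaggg
FGF21, chr19:48755459-48755488, + strand: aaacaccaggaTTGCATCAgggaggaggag
CHAC1, chr15:40953251-40953280, + strand: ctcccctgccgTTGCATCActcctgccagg
SLC1A4, chr2:64989381-64989410, + strand: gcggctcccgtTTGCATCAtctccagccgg
ATF3, chr1:212565205-212565234, + strand: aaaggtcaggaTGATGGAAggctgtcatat
SLC7A1, chr13:29595663-29595692, - strand: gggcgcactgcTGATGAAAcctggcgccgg
ASNS, chr7:97872458-97872487, - strand: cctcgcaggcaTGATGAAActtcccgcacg

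The exact octamer was present in 6 of the 47 windows (12.8%), 1 each for the first 6 genes above, and in 304 of all 35116 promoter windows (0.866%). The looser form, which includes the exact one, was found in 10 windows (21.3%), adding ATF3, SLC7A1, ASNS and SLC3A2, against 1270 of all windows (3.62%). The ER stress element to which ATF6 and XBP1s can bind (CCAAT and CCACG separated by 9 bases) was in 0 of the 47 windows and in 27 of all windows (0.0769%). TGACGTGG, a core of the UPR element, was in 1 of the 47, that of ALDH18A1, and in 256 of all windows (0.729%). These matches describe letters in the windows and not binding, and no match says only that the letters were not in that window.

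Depth was similar across the 16 libraries, with 28713607 to 34509488 counted fragments each, and mitochondrial genes took 2.76% to 5.04% of them, both extremes lying in siCtrl. XBP1 itself checked the knockdown: it measured 382, 426, 365 and 362 CPM in siCtrl (fragments relative to the library total, with TMM scaling) and 51.5, 54.2, 54.4 and 53.4 CPM in siXBP1, a log2 fold change of -2.85 (SE 0.051, adjusted p = 2.92e-20, edgeR). MKC8866 blocks the splicing of XBP1 mRNA, which a count over the whole gene does not show, and XBP1 counts were higher in MKC8866 than in Vehicle (log2 fold change 0.20, SE 0.044, adjusted p = 0.00493). All 8 luminal prostate markers were at or above 1 CPM in each group, and their summed level ran from 3237 to 3343 CPM in siXBP1, below the 4155 to 4447 CPM of siCtrl, and from 4616 to 4765 CPM in MKC8866, above the 4194 to 4300 CPM of Vehicle. None of the 3 basal or 3 leukocyte markers reached 1 CPM, and of 4 fibroblast and 3 endothelial markers 1 each did. These differences in marker level moved with the treatments, and their part in the results below was not tested. In bulk RNA, fewer cells of a type and less RNA per cell cannot be told apart.

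XBP1 knockdown changed most of the 35 genes, and in both directions. All 35 passed the filter on low counts. In siXBP1 against siCtrl, 16 rose (45.7%), 8 fell (22.9%) and 11 did not pass at an adjusted p under 0.05 (edgeR quasi-likelihood test, Benjamini-Hochberg). Among all 21021 genes tested, 16.5% rose and 18.2% fell, so that the share of falls was near that of all genes. The median log2 fold change of the 35 was 0.10, beside 0.0050 over all genes. The genes that rose included CHOP, the C/EBP factors CEBPB and CEBPG, SESN2, FGF21, XPOT and the glutamine transporter SLC1A5. ATF3, PSAT1 and the transporters SLC1A4, SLC7A1 and SLC38A2 fell. ATF4 mRNA did not pass the test.

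In MKC8866 against Vehicle, 2 of the same 35 genes passed the test and 33 did not. SLC1A4 rose and ATF4 fell, each 2.86% of the 35. Of all 21045 genes tested in that comparison, 1.36% rose and 3.11% fell, so that the share of falls was near that of all genes. At an unadjusted p under 0.05 there were 7 genes, and the median log2 fold change of the 35 was 0.0013 against 0.0027 over all genes. With these tests and this filter, SLC1A4 was the 1 gene of the 35 past the threshold with both treatments, in opposite directions. Same-numbered libraries of the inhibitor experiment partly varied together. With a block for the replicate number, 4 of the 35 rose and 5 fell with MKC8866, beside 1262 and 1484 of the 21045 genes. DDIT3, ATF3 and SLC3A2 then also passed with both treatments in opposite directions, and SESN2 and PSAT1 in the same direction. SESN2, which rose with siXBP1, also passed as higher with MKC8866 without the filter on low counts and without MKC8866 replicate 2 (adjusted p = 0.0182 for the latter).

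**Figure D1:**
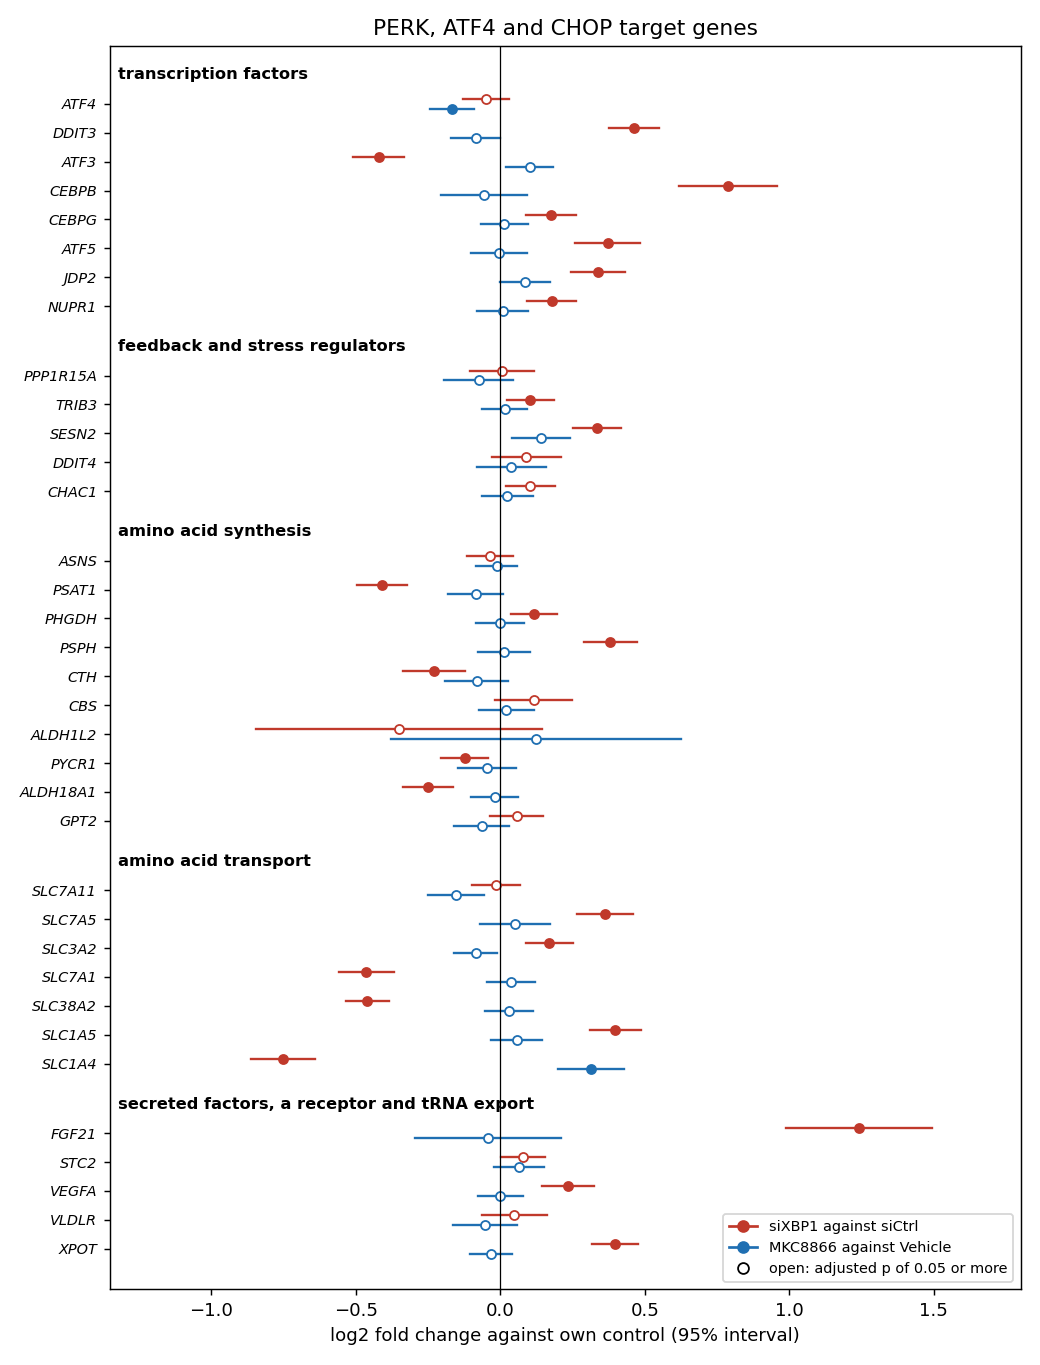
Log2 fold change of each of the 35 genes in siXBP1 against siCtrl (red) and in MKC8866 against Vehicle (blue), with 95% intervals; filled points passed an adjusted p under 0.05 and the genes are grouped by role. With siXBP1 the points spread from -0.75 for SLC1A4 to 1.24 for FGF21, and with MKC8866 from -0.17 for ATF4 to 0.31 for SLC1A4.

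Among the 8 transcription factors, 6 rose (75.0%) and 1 fell (12.5%) with siXBP1, beside 16.5% and 18.2% of all genes. With MKC8866 1 fell (12.5%), beside 3.11% of all genes. ATF4 (ENSG00000128272, chr22:39519695-39522685), the factor at the head of the module, measured 880.0, 929, 925 and 971 CPM in siCtrl and 887, 896, 882 and 931 CPM in siXBP1. The ranges overlapped, and the log2 fold change was -0.05 with a 95% interval of -0.13 to 0.03 (SE 0.038, adjusted p = 0.382). In the inhibitor experiment it measured 968, 880.1, 879.7 and 905 CPM in Vehicle and 819.9, 786, 829 and 807 CPM in MKC8866, so that all 4 treated libraries lay below all 4 controls. That fall was small, with a log2 fold change of -0.17 (SE 0.037, adjusted p = 0.00715).

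CHOP is the product of DDIT3 (ENSG00000175197, chr12:57516588-57520517). Its mRNA measured 183, 171, 182 and 181 CPM in siCtrl and 241, 251, 259 and 239.6 CPM in siXBP1. The groups were well apart, and DDIT3 rose 1.38-fold (log2 fold change 0.46, SE 0.041, adjusted p = 6.79e-09). With Vehicle it measured 204, 201, 201 and 192 CPM and with MKC8866 186, 193, 196 and 179 CPM, overlapping ranges that did not pass the test (log2 fold change -0.08, SE 0.041, adjusted p = 0.325). DDIT3 passed as lower in MKC8866 with a block for the replicate number. DDIT3 shares 355 exon bases, 28.0% of its exon length, with MARS1 on the other strand, and fragments lying over both genes were not counted. MARS1 did not pass the test with siXBP1 (log2 fold change -0.06, SE 0.04, adjusted p = 0.249).

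ATF3, which is induced by ATF4 and can repress or activate its targets, went the other way. Its level was 731, 711, 659 and 712 CPM in siCtrl and 501, 544, 547 and 516 CPM in siXBP1, with every knockdown library below every control (log2 fold change -0.42, SE 0.042, adjusted p = 5.06e-08). Vehicle libraries gave 782, 792, 781 and 848 CPM and MKC8866 libraries 867, 843, 817 and 915 CPM. These overlapped, and ATF3 did not pass the test with the inhibitor (log2 fold change 0.10, SE 0.038, adjusted p = 0.171). With a block for the replicate number it passed as higher in MKC8866.

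The C/EBP factors are the partners of ATF4 and CHOP on DNA. CEBPB measured 43.1, 51.8, 40.2 and 43.3 CPM in siCtrl and 69.3, 68.8, 94 and 77 CPM in siXBP1, the largest rise among the transcription factors here (log2 fold change 0.79, SE 0.082, adjusted p = 8.21e-08). In Vehicle it was at 62.9, 68, 58.3 and 57.7 CPM and in MKC8866 at 61.4, 60.9, 66.8 and 48.9 CPM, which overlapped (log2 fold change -0.06, SE 0.072, adjusted p = 0.801). The siCtrl libraries lay below those of Vehicle for this gene as well (log2 difference -0.48, SE 0.089, adjusted p = 0.000304). CEBPG, which heterodimerizes with ATF4, was at 218, 211, 219.9 and 214 CPM in siCtrl and 243, 237, 262 and 237 CPM in siXBP1, a smaller rise without overlap (log2 fold change 0.18, SE 0.041, adjusted p = 0.00171). Its levels were 214, 219.7, 221 and 219 CPM in Vehicle and 225, 229.9, 217 and 212 CPM in MKC8866, which overlapped (log2 fold change 0.02, SE 0.039, adjusted p = 0.917).

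ATF5, a factor related to ATF4 and likewise under translational control, measured 38.6, 33.9, 36.3 and 35.6 CPM in siCtrl and 45.9, 49, 43.9 and 48.5 CPM in siXBP1. It rose without overlap (log2 fold change 0.37, SE 0.054, adjusted p = 9.17e-06). Vehicle gave 39.7, 40.6, 40.3 and 39.7 CPM and MKC8866 40.6, 39.9, 38.3 and 41.2 CPM (log2 fold change -0.0034, SE 0.047, adjusted p = 0.988). ATF5 shares 21.2% of its exon bases with NUP62 on the opposite strand, so that its counts rest on the remainder. JDP2, a repressor of AP-1 sites with the octamer in its promoter window, measured 61, 69.8, 65.3 and 68.4 CPM in siCtrl and 85.9, 84.1, 83.8 and 81.6 CPM in siXBP1 and rose (log2 fold change 0.34, SE 0.045, adjusted p = 3.08e-06). In Vehicle and MKC8866 its values were 71.6, 68.8, 71 and 70.5 CPM and 76.3, 72.7, 75.6 and 74.8 CPM, which did not overlap but did not pass the test (log2 fold change 0.09, SE 0.042, adjusted p = 0.341). NUPR1, a small stress-induced chromatin protein, was at 364, 356, 345 and 391 CPM in siCtrl and 407, 413, 409 and 421 CPM in siXBP1 and rose by a small amount (log2 fold change 0.18, SE 0.04, adjusted p = 0.00124). It measured 404, 362, 372 and 366 CPM in Vehicle and 383, 359, 399.7 and 373 CPM in MKC8866, which overlapped (log2 fold change 0.01, SE 0.042, adjusted p = 0.963).

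**Figure D2:**
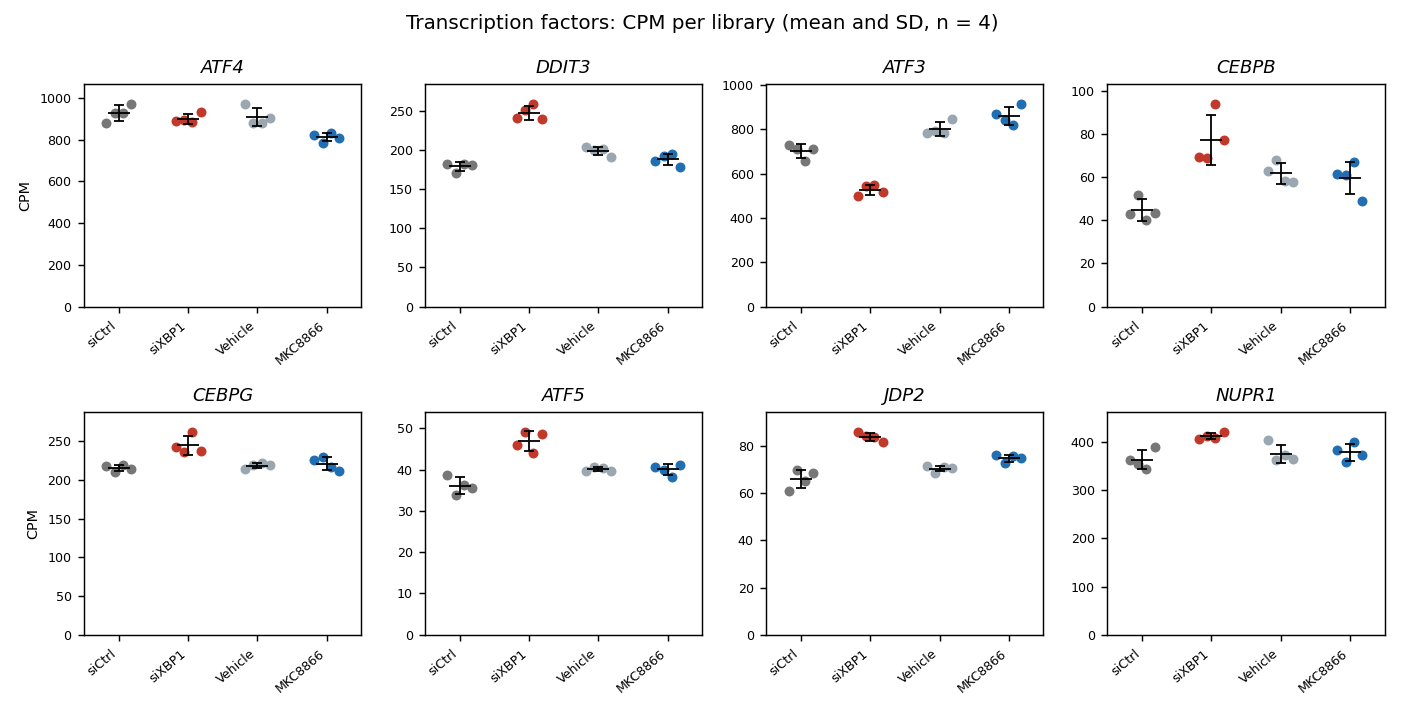
CPM of the 8 transcription factors in each library, with the mean and SD of each group (n = 4) and every axis starting at 0. In siXBP1 against siCtrl, ATF3 fell from a mean of 703 ± 31.1 to 527 ± 22.2 CPM and DDIT3 rose from 179 ± 5.49 to 248 ± 9.28 CPM, while ATF4 was lower in MKC8866 (810.3 ± 18.8 CPM) than in Vehicle (908 ± 41.8 CPM).

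The 5 feedback and stress regulators gave 2 rises and no fall with siXBP1, and none passed with MKC8866, where 1 of the 5 had an unadjusted p under 0.05 and DESeq2 called none. PPP1R15A encodes GADD34, the stress-induced subunit that directs a phosphatase to eIF2α. It measured 31.4, 33.9, 30.4 and 32 CPM in siCtrl and 32.5, 33.9, 32.1 and 30.2 CPM in siXBP1, fully overlapping, with a log2 fold change of 0.01 and an interval of -0.10 to 0.12. Vehicle and MKC8866 gave 35.9, 32.3, 33.2 and 36.7 CPM and 34.2, 29.9, 32.5 and 34.7 CPM, likewise overlapping, with an interval of -0.19 to 0.04. SESN2, an inhibitor of mTORC1 that senses leucine, was at 352, 374, 385 and 359 CPM in siCtrl and 489, 449, 463 and 457 CPM in siXBP1. It rose 1.26-fold without overlap (log2 fold change 0.34, SE 0.04, adjusted p = 6.85e-07). The inhibitor experiment gave 345, 295, 335 and 327 CPM in Vehicle and 376, 329.7, 375 and 357 CPM in MKC8866, where the groups overlapped (log2 fold change 0.14, SE 0.048, adjusted p = 0.11). Without MKC8866 replicate 2 it passed as higher with the inhibitor (adjusted p = 0.0182). It also did so with a block for the replicate number.

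TRIB3, a pseudokinase that restrains ATF4 and AKT, rose slightly from 506 ± 20.4 to 546 ± 16.5 CPM (mean ± SD, n = 4) with siXBP1 (log2 fold change 0.10, SE 0.039, adjusted p = 0.0447). That call was lost without siCtrl replicate 1 or without siXBP1 replicate 3, where the adjusted p was at most 0.115. The remaining 2 genes did not pass with either treatment. DDIT4, which encodes the mTORC1 inhibitor REDD1, was at 485 ± 47.5 and 518 ± 40.4 CPM in siCtrl and siXBP1 (adjusted p = 0.247). CHAC1, which breaks down glutathione, was at 248 ± 11.1 and 268 ± 11.4 CPM (adjusted p = 0.0532). CHAC1 passed as higher without siCtrl replicate 2 or 4 or siXBP1 replicate 3 (adjusted p up to 0.0402), and DDIT4 without siCtrl replicate 2 or siXBP1 replicate 3 (up to 0.0453). With MKC8866, the log2 fold changes of TRIB3, DDIT4 and CHAC1 were 0.02, 0.04 and 0.03.

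The 10 enzymes of amino acid metabolism were divided, with 2 higher, 4 lower and 4 not called in siXBP1, and a median log2 fold change of -0.08. Over all genes 16.5% rose and 18.2% fell, so that the share of rises was near that of all genes. None of the 10 passed with MKC8866, where none had an unadjusted p under 0.05 and DESeq2 called none. The serine pathway showed the split within consecutive steps. PHGDH, its first enzyme, rose slightly from 639.7 ± 19.2 to 696 ± 21.9 CPM (log2 fold change 0.12, SE 0.038, adjusted p = 0.0188), a call lost without siXBP1 replicate 3 (adjusted p = 0.0545). PSAT1, the second enzyme, measured 464, 455, 487 and 487 CPM in siCtrl and 341, 352, 379.7 and 356 CPM in siXBP1 and fell without overlap (log2 fold change -0.41, SE 0.042, adjusted p = 5.45e-08). PSPH, the last enzyme, measured 111, 106, 117 and 115 CPM in siCtrl and 146, 138, 153 and 149 CPM in siXBP1 and rose without overlap (log2 fold change 0.38, SE 0.044, adjusted p = 4.39e-07).

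In the inhibitor experiment, PSAT1 was at 492, 558, 497 and 507 CPM in Vehicle and 464, 528, 478 and 471 CPM in MKC8866 (log2 fold change -0.08, SE 0.046, adjusted p = 0.41). PSPH was at 124, 129, 127 and 123 CPM in Vehicle and 130.2, 130.1, 129 and 118 CPM in MKC8866 (log2 fold change 0.01, SE 0.043, adjusted p = 0.935). Both pairs of groups overlapped. With a block for the replicate number PSAT1 passed as lower in MKC8866. ASNS, the asparagine synthetase whose promoter is a model ATF4 site, did not pass with either treatment, at 419 ± 13.3 and 410.1 ± 8.98 CPM in siCtrl and siXBP1 and 422 ± 5.11 and 419 ± 2.42 CPM in Vehicle and MKC8866. The interval of its log2 fold change was -0.12 to 0.04 with siXBP1 and -0.08 to 0.06 with MKC8866.

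Of the proline pathway, ALDH18A1, its first enzyme, measured 175, 188, 181 and 184 CPM in siCtrl and 159, 147, 161 and 148 CPM in siXBP1 and fell (log2 fold change -0.25, SE 0.041, adjusted p = 4.47e-05). It was at 182, 169.9, 179.5 and 176 CPM in Vehicle and 177, 167, 178 and 178 CPM in MKC8866, which overlapped (log2 fold change -0.02, SE 0.039, adjusted p = 0.895). PYCR1, the last enzyme of that pathway, fell slightly from 361 ± 18.2 to 333 ± 4.26 CPM (log2 fold change -0.12, SE 0.039, adjusted p = 0.0176), although siCtrl replicate 1 overlapped the knockdown libraries. The call for PYCR1 was lost without siCtrl replicate 2, 3 or 4 or without siXBP1 replicate 1, with adjusted p-values up to 0.0868. CTH, which makes cysteine from cystathionine, fell from 51.1 ± 1.2 to 43.7 ± 3.12 CPM (log2 fold change -0.23, SE 0.052, adjusted p = 0.00119).

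The enzymes CBS, GPT2 and ALDH1L2 did not pass with either treatment. CBS, which acts just before CTH, was at 96.4 ± 8.98 and 105 ± 9.55 CPM in siCtrl and siXBP1, and has a near-identical copy in the reference, so that its count is uncertain. It passed as higher in siXBP1 without siCtrl replicate 1 (adjusted p = 0.0383). GPT2, a mitochondrial alanine transaminase, was at 299 ± 12.6 and 312 ± 15.9 CPM. ALDH1L2, a mitochondrial folate enzyme, was barely detected at 0.976 ± 0.145 and 0.765 ± 0.201 CPM, with as few as 17 fragments in a library, and the interval of its log2 fold change ran from -0.84 to 0.14. At that depth a change of the size seen for the other enzymes was not detectable.

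The amino acid transporters moved in both directions: 3 of 7 rose (42.9%), 3 fell (42.9%) and 1 was not called in siXBP1, beside 16.5% and 18.2% of all genes. In MKC8866 1 rose (14.3%), beside 1.36% of all genes. SLC1A4 and SLC1A5 are sister transporters of small neutral amino acids, and both had the exact octamer in a promoter window. SLC1A4 measured 42.6, 47.5, 47.4 and 48.8 CPM in siCtrl and 26.4, 27.4, 27.8 and 29.2 CPM in siXBP1, a fall without overlap (log2 fold change -0.75, SE 0.053, adjusted p = 1.64e-10). In Vehicle it measured 46.6, 40.5, 48.5 and 46.1 CPM and in MKC8866 55.5, 52.9, 58.5 and 59.3 CPM, where it rose (log2 fold change 0.31, SE 0.055, adjusted p = 0.000493). Neither pair of groups overlapped, so the gene moved in opposite directions under the 2 treatments. SLC1A5, the main glutamine importer of many cancer cells, measured 119, 133, 129 and 133 CPM in siCtrl and 170.4, 162, 170.2 and 177 CPM in siXBP1 and rose (log2 fold change 0.40, SE 0.042, adjusted p = 1.18e-07). It was at 148, 132, 144 and 142 CPM in Vehicle and 150.3, 141, 152 and 146 CPM in MKC8866, with overlap (log2 fold change 0.06, SE 0.043, adjusted p = 0.6).

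SLC7A5 and SLC3A2 form LAT1, the exchanger for large neutral amino acids such as leucine, and both subunits rose. SLC7A5 measured 44, 47.7, 45.9 and 46.7 CPM in siCtrl and 63.1, 57.6, 56.7 and 60.3 CPM in siXBP1 (log2 fold change 0.36, SE 0.047, adjusted p = 2.13e-06). SLC3A2, the shared heavy chain, measured 469, 469, 507 and 493 CPM in siCtrl and 543, 543, 563 and 537 CPM in siXBP1 (log2 fold change 0.17, SE 0.039, adjusted p = 0.00139). Neither overlapped its control. With the inhibitor, SLC7A5 was at 49.3, 40.7, 45.2 and 45.9 CPM in Vehicle and 48.2, 42.1, 48.3 and 49.4 CPM in MKC8866 (log2 fold change 0.05, SE 0.059, adjusted p = 0.768). SLC3A2 was at 550.0, 537, 554 and 531 CPM in Vehicle and 514, 512, 527 and 497 CPM in MKC8866, and all 4 treated libraries lay lower without passing the test (log2 fold change -0.09, SE 0.036, adjusted p = 0.239). With a block for the replicate number SLC3A2 passed as lower in MKC8866. SLC7A11, the cystine transporter that uses the same heavy chain, did not pass with siXBP1, at 312 ± 14.6 and 310.1 ± 10.3 CPM, or with MKC8866, at 343 ± 18.6 and 308 ± 21.4 CPM (log2 fold change -0.15, SE 0.047, adjusted p = 0.066). Without Vehicle replicate 1, MKC8866 replicate 2 or MKC8866 replicate 4, SLC7A11 passed as lower in MKC8866, with adjusted p-values up to 0.0335. It also did so with a block for the replicate number.

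The cationic amino acid transporter SLC7A1 measured 455, 555, 517 and 538 CPM in siCtrl and 382, 370.2, 372 and 378 CPM in siXBP1 and fell (log2 fold change -0.46, SE 0.046, adjusted p = 4.51e-08). The glutamine and alanine carrier SLC38A2, which is induced when amino acids run short, measured 404, 418, 415 and 415 CPM in siCtrl and 293, 302, 304 and 307 CPM in siXBP1 and fell (log2 fold change -0.46, SE 0.036, adjusted p = 8.59e-10). In both, the knockdown libraries lay below every control. SLC7A1 was at 446, 428, 446 and 457 CPM in Vehicle and 436, 432, 468 and 490.2 CPM in MKC8866 (log2 fold change 0.04, SE 0.04, adjusted p = 0.748). SLC38A2 was at 390.4, 435, 415 and 430.3 CPM in Vehicle and 406, 440.3, 424 and 439 CPM in MKC8866 (log2 fold change 0.03, SE 0.04, adjusted p = 0.81). These groups overlapped, and neither gene passed with the inhibitor.

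**Figure D3:**
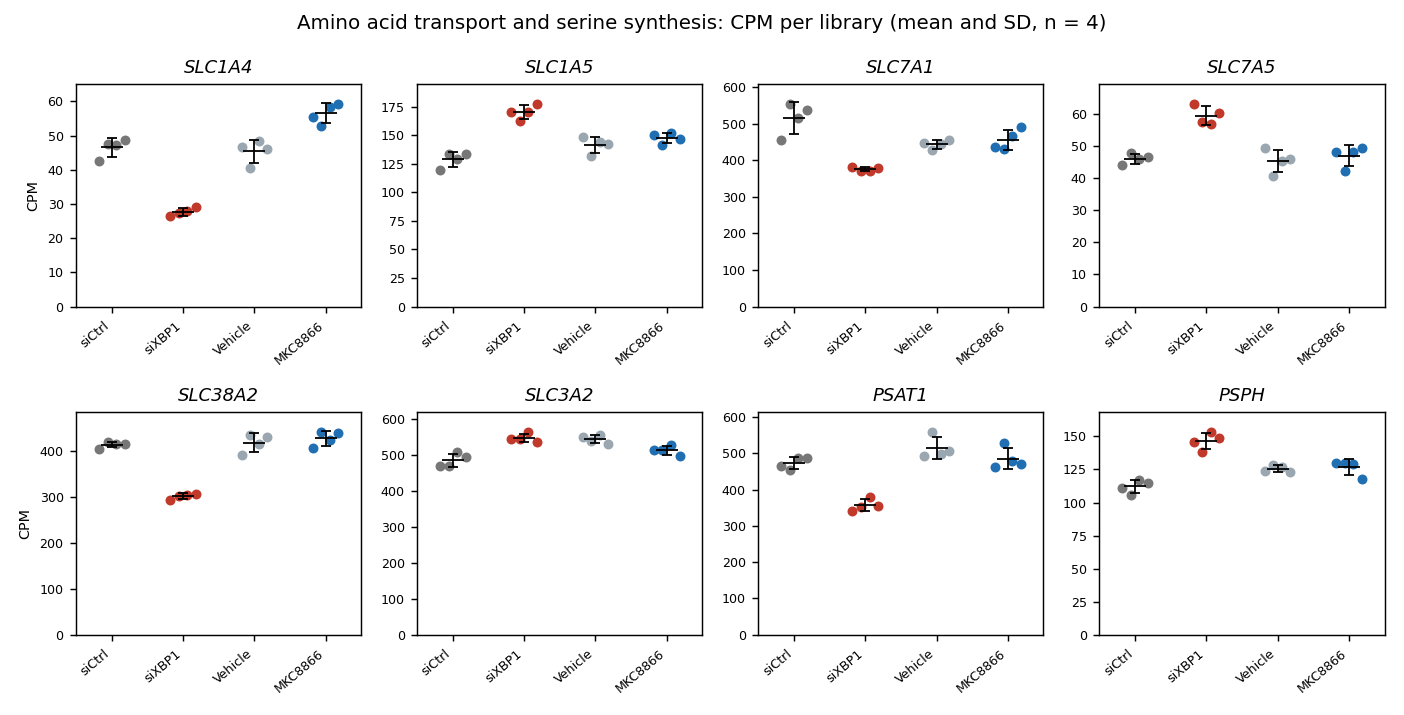
CPM of 6 amino acid transporter genes and of the serine pathway genes PSAT1 and PSPH in each library, with group mean and SD (n = 4) and axes starting at 0. SLC1A4, SLC7A1, SLC38A2 and PSAT1 lay lower and SLC1A5, SLC7A5, SLC3A2 and PSPH higher in all 4 siXBP1 libraries than in any siCtrl library, and SLC1A4 lay higher in MKC8866 (52.9 to 59.3 CPM) than in Vehicle (40.5 to 48.5 CPM).

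Among the 5 secreted factors, receptor and tRNA export genes, 3 rose (60.0%) and none fell with siXBP1, beside 16.5% and 18.2% of all genes. None passed with MKC8866, beside 1.36% higher and 3.11% lower of all genes. There none had an unadjusted p under 0.05 and DESeq2 called none. With a block for the replicate number STC2 passed as higher there. FGF21, a stress-induced hormone of metabolism, showed the largest fold change of the 35. It measured 2.88, 2.87, 2.03 and 2.21 CPM in siCtrl and 5.97, 5.77, 5.75 and 6.2 CPM in siXBP1, a 2.36-fold rise (log2 fold change 1.24, SE 0.12, adjusted p = 3.28e-08), at a low level with as few as 64 fragments in a library. Its values in Vehicle were 3.92, 2.78, 3.38 and 3.52 CPM and in MKC8866 3.45, 3.57, 3.22 and 3.03 CPM, which overlapped (log2 fold change -0.04, SE 0.12, adjusted p = 0.932). VEGFA, the angiogenic growth factor, measured 628, 635, 634 and 562 CPM in siCtrl and 748, 723, 694 and 734 CPM in siXBP1 and rose (log2 fold change 0.23, SE 0.044, adjusted p = 0.000181). In Vehicle and MKC8866 its values were 619, 574, 598 and 587 CPM and 609.6, 573, 615 and 584 CPM (log2 fold change 0.0013, SE 0.037, adjusted p = 0.994). XPOT, the nuclear exporter of tRNA, measured 639.6, 607, 618 and 610.1 CPM in siCtrl and 832, 791, 839 and 807 CPM in siXBP1 and rose without overlap (log2 fold change 0.40, SE 0.038, adjusted p = 2.5e-08). It was at 684, 724, 692 and 702 CPM in Vehicle and 676, 699, 674 and 695 CPM in MKC8866 (log2 fold change -0.03, SE 0.035, adjusted p = 0.747). STC2, a secreted stress protein, and VLDLR, a lipoprotein receptor, did not pass with either treatment. Their levels in siCtrl and siXBP1 were 455 ± 15.2 and 482 ± 7.87 CPM for STC2 and 29.4 ± 1.08 and 30.5 ± 1.28 CPM for VLDLR.

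Compared per kilobase of exon, the mRNA levels of the 35 genes spanned several orders of magnitude. ATF4 was the most abundant with 352 CPM per kb as the mean over the groups, followed by DDIT4 with 246, PSAT1 with 209, ATF3 with 179 and DDIT3 with 161 CPM per kb. The order of these last changed with the knockdown, since DDIT3 was above ATF3 and PSAT1 in siXBP1 and below both in siCtrl. At the other end lay SLC1A4 with 6.35, VLDLR with 3.01, FGF21 with 2.89 and ALDH1L2 with 0.101 CPM per kb. These levels use the summed exon length of each gene, and the true transcript in these cells can be shorter. That length includes bases shared with another gene, over which fragments were not counted. The largest such shares were 41.2% for DDIT4, 28.0% for DDIT3, 23.4% for SLC1A5 and 21.2% for ATF5. PYCR1 shared 15.6% with a gene on the other strand and 14.1% with MYADML2, and other genes of the 35 shared less. The levels of these genes can thus be too low, and the order of DDIT3 against ATF3 and PSAT1 can depend on it.

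**Figure D4:**
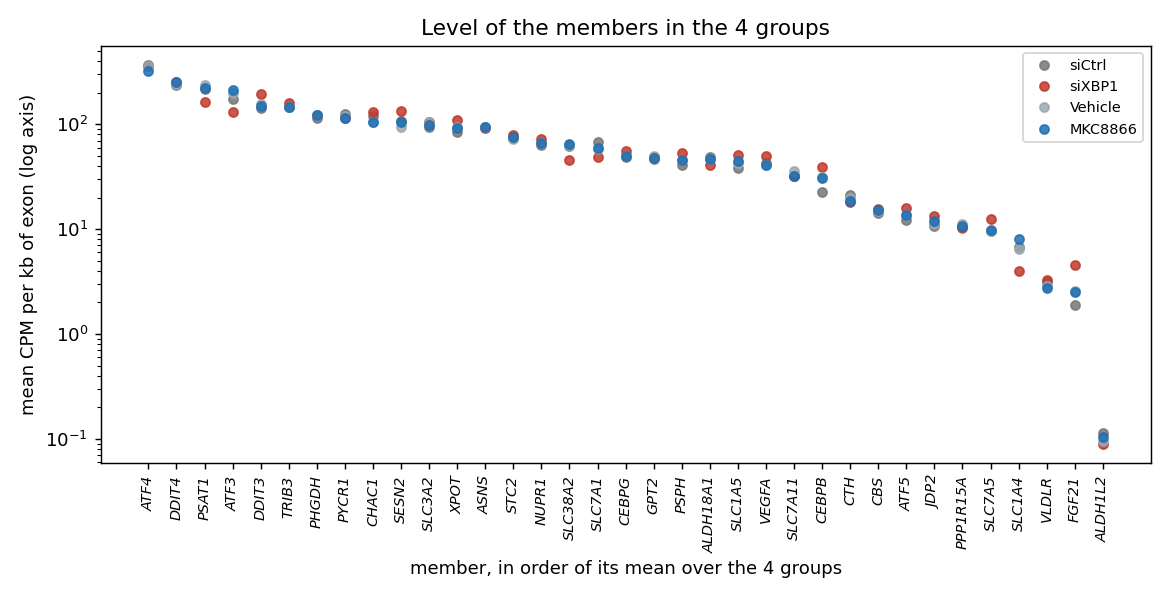
Mean CPM per kb of exon of the 35 genes in the 4 groups on a log axis, ordered by the mean over the groups. ATF4 leads at 352 CPM per kb and ALDH1L2 is last at 0.101, and the points of siXBP1 stand apart from the rest for genes such as ATF3, DDIT3, SLC1A4 and FGF21.

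Whether the 2 treatments acted differently on a gene was tested as an interaction, the log2 response to siXBP1 minus that to MKC8866, in a fit of all 16 libraries. Of the 35 genes, 14 had a higher and 6 a lower response to siXBP1, beside 10.6% higher and 12.7% lower of the 20357 genes tested, and 15 did not pass. The higher ones were led by FGF21 (log2 difference 1.28, SE 0.17, adjusted p = 1.16e-06), CEBPB (log2 difference 0.85, SE 0.12, adjusted p = 5.29e-06), DDIT3 (log2 difference 0.55, SE 0.057, adjusted p = 1.24e-08) and XPOT (log2 difference 0.43, SE 0.05, adjusted p = 8.19e-08). The lower ones were led by SLC1A4 (log2 difference -1.06, SE 0.078, adjusted p = 7.72e-12), ATF3 (log2 difference -0.52, SE 0.059, adjusted p = 6.36e-08), SLC7A1 (log2 difference -0.50, SE 0.064, adjusted p = 6.71e-07) and SLC38A2 (log2 difference -0.49, SE 0.054, adjusted p = 3.48e-08). PSPH, ATF5, SLC1A5, SLC7A5, SLC3A2, JDP2, VEGFA, SESN2, NUPR1 and CEBPG were also higher and PSAT1 and ALDH18A1 lower, with differences ranging from -0.32 for PSAT1 to 0.38 for ATF5 on the log2 scale. For ATF4 the difference was 0.12, with an interval of 0.01 to 0.23, and it did not pass (adjusted p = 0.103).

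The calls for 3 of these genes, with adjusted p-values of 0.0297 to 0.0342, were each lost on the removal of any 1 of several libraries. That for CEBPG was lost without siCtrl replicate 2 or 4, siXBP1 replicate 3, Vehicle replicate 3 or 4, or MKC8866 replicate 3 or 4, with adjusted p-values up to 0.0886. The call for NUPR1 was lost without siCtrl replicate 2 or 3, siXBP1 replicate 2 or 4, Vehicle replicate 1 or 3, or MKC8866 replicate 2 or 4, up to 0.0985. SESN2 lost its call without siCtrl replicate 1 or 4, siXBP1 replicate 1, Vehicle replicate 1 or 3, or MKC8866 replicate 2, up to 0.0784. PHGDH passed as higher without Vehicle replicate 2 (adjusted p = 0.04996).

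The 2 experiments had controls and pretreatments of their own, so that knockdown and inhibitor cannot be told apart from transfection and treatment time in this difference. The controls themselves differed. In siCtrl against Vehicle, 3 of the 35 genes (8.57%) were higher, namely SESN2, CHAC1 and SLC7A1, and 10 (28.6%) were lower. Among all genes tested, 7.65% were higher and 7.39% lower, so that the share of higher genes was near that of all genes. The 10 were CEBPB, FGF21, ATF3, XPOT, SLC3A2, PSPH, DDIT3, ATF5, SLC1A5 and SLC7A11, with log2 differences between -0.48 and -0.14. The siCtrl libraries enter this comparison and that with siXBP1 alike, and so the same control values stand behind both. Set side by side, CEBPB had means of 44.6 ± 5.0 CPM in siCtrl and 77.3 ± 11.7 CPM in siXBP1, with 61.7 ± 4.79 CPM in Vehicle between them. DDIT3 had means of 179 ± 5.49, 248 ± 9.28 and 199.5 ± 5.15 CPM in siCtrl, siXBP1 and Vehicle, so that siXBP1 lay above both controls. Of these calls between the controls, 5, with adjusted p-values of 0.0137 to 0.0337, were each lost on the removal of any 1 of 2 to 5 libraries. That for ATF5 was lost without siCtrl replicate 2 or 4 or Vehicle replicate 2, 3 or 4 (adjusted p up to 0.122), and that for FGF21 without siCtrl replicate 3 or 4 or Vehicle replicate 1 (up to 0.0624). SESN2 lost its call without siCtrl replicate 3 or Vehicle replicate 2 (up to 0.0800), SLC1A5 without siCtrl replicate 1 or Vehicle replicate 1 or 3 (up to 0.0767), and SLC7A11 without siCtrl replicate 1 or Vehicle replicate 2, 3 or 4 (up to 0.127). PHGDH passed as lower in siCtrl without Vehicle replicate 2 (adjusted p = 0.0275).

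Upstream of ATF4 lie the 4 kinases that phosphorylate eIF2α. The list also held 5 regulators of eIF2α phosphorylation: DNAJC3, NCK1 and IMPACT, which restrain a kinase, GCN1, which activates the kinase GCN2, and the phosphatase subunit PPP1R15B. Of these 9 genes, none rose and 6 fell (66.7%) with siXBP1, beside 16.5% and 18.2% of all genes. With MKC8866 3 fell (33.3%) and none rose, beside 3.11% and 1.36% of all genes. EIF2AK3, the mRNA of PERK itself, fell by nearly the same amount with both. It measured 84.1, 78.7, 83.5 and 81.4 CPM in siCtrl and 48.8, 46.2, 52.9 and 46.4 CPM in siXBP1 (log2 fold change -0.76, SE 0.05, adjusted p = 4.97e-11). In Vehicle it measured 83.9, 85.8, 85.3 and 83.7 CPM and in MKC8866 50.7, 48.9, 50.6 and 51 CPM (log2 fold change -0.75, SE 0.042, adjusted p = 6.94e-12). Neither pair overlapped, and the difference between the responses was -0.0036 on the log2 scale with an interval of -0.13 to 0.12 (adjusted p = 0.979).

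DNAJC3, which encodes the PERK inhibitor P58IPK and is a known XBP1s target, was at 233, 236, 231 and 239 CPM in siCtrl and 165, 157, 176 and 167 CPM in siXBP1 and fell (log2 fold change -0.50, SE 0.04, adjusted p = 1.26e-09). It was at 204, 226, 221 and 235 CPM in Vehicle and 146, 162, 160.0 and 166 CPM in MKC8866 and fell there too (log2 fold change -0.49, SE 0.046, adjusted p = 7.48e-08). EIF2AK2, which encodes the double-stranded RNA sensor PKR, measured 65.8, 66.4, 67.3 and 69.1 CPM in siCtrl and 41.8, 39.7, 41.6 and 40.8 CPM in siXBP1 and fell (log2 fold change -0.72, SE 0.044, adjusted p = 1.43e-11). With MKC8866 it did not pass (log2 fold change 0.04, SE 0.058, adjusted p = 0.835), and the difference between the responses did (log2 difference -0.75, SE 0.075, adjusted p = 4.95e-09). NCK1, an adaptor that keeps PERK inactive, was the third gene to fall with MKC8866 (log2 fold change -0.18, SE 0.048, adjusted p = 0.0243). With siXBP1 NCK1 did not pass (log2 fold change 0.05, SE 0.05, adjusted p = 0.451), and the difference between the responses did (log2 difference 0.24, SE 0.068, adjusted p = 0.00909). NCK1 was also lower in siCtrl than in Vehicle (log2 difference -0.18, SE 0.048, adjusted p = 0.00883). The other two kinases, EIF2AK1 and EIF2AK4, did not pass with either treatment. PPP1R15B, the constitutive counterpart of GADD34, fell with siXBP1 from 287 ± 4.03 to 240.5 ± 2.99 CPM (log2 fold change -0.26, SE 0.036, adjusted p = 4.51e-06), and, like EIF2AK1 and EIF2AK4, was named after its values were seen. Its mean in Vehicle was 204 ± 8.73 CPM, lower than in siCtrl (log2 fold change 0.49, SE 0.037, adjusted p = 1.05e-10).

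**Figure D5:**
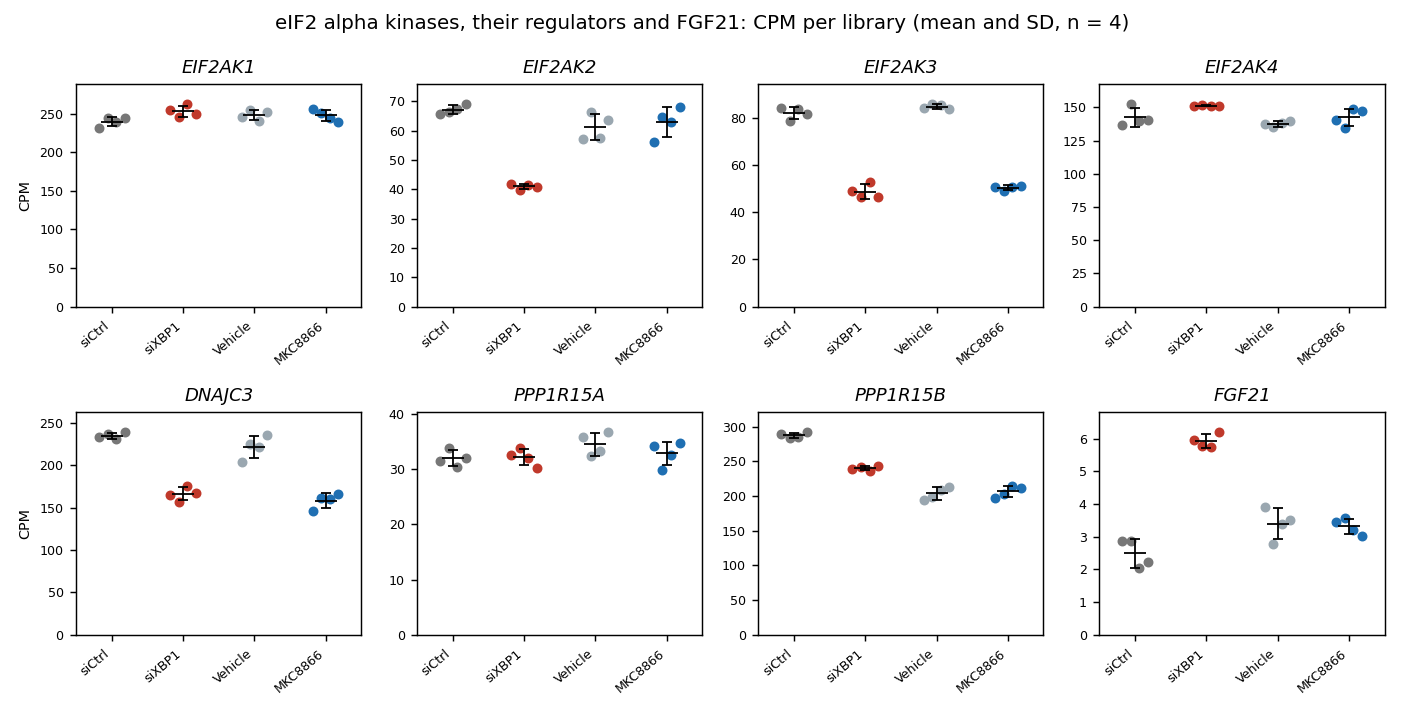
CPM of the 4 eIF2α kinases, of DNAJC3, of the phosphatase subunits PPP1R15A and PPP1R15B, and of FGF21 in each library, with group mean and SD (n = 4) and axes starting at 0. EIF2AK3 and DNAJC3 lay lower under both treatments, with EIF2AK3 at 46.2 to 52.9 CPM in siXBP1 and 48.9 to 51 CPM in MKC8866, while EIF2AK2 lay lower and FGF21 higher in siXBP1 than in siCtrl.

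The eIF2 complex and its exchange factor eIF2B, on which phosphorylated eIF2α acts, changed by small amounts. Of 9 genes, 1 rose (11.1%) and 6 fell (66.7%) with siXBP1, beside 16.5% and 18.2% of all genes, with a median log2 fold change of -0.14. The rise was that of EIF2S2, which encodes eIF2β (log2 fold change 0.14, SE 0.04, adjusted p = 0.0104). The largest called falls were those of EIF2B3 (log2 fold change -0.27, SE 0.062, adjusted p = 0.00158) and EIF2A, an initiation factor outside the complex (log2 fold change -0.19, SE 0.04, adjusted p = 0.000619). None of the 9 passed with MKC8866, beside 1.36% higher and 3.11% lower of all genes. There none had an unadjusted p under 0.05 and DESeq2 called none.

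Of 33 other reported ATF4 targets, 32 were tested, and 14 rose (43.8%) and 7 fell (21.9%) with siXBP1, with a median log2 fold change of 0.10. Over all genes 16.5% rose and 18.2% fell, so that the share of falls was near that of all genes. INHBE, a hormone of the activin family, measured 1.0, 1.28, 1.4 and 1.06 CPM in siCtrl and 3.37, 3.3, 3.03 and 3.42 CPM in siXBP1 and rose (log2 fold change 1.46, SE 0.15, adjusted p = 6.42e-08). MTHFD2, the mitochondrial folate enzyme that supplies one-carbon units, measured 251, 263, 268 and 272 CPM in siCtrl and 125, 126, 128 and 136 CPM in siXBP1 and fell (log2 fold change -1.04, SE 0.04, adjusted p = 5.66e-15). With the inhibitor 2 genes fell (6.25%, beside 3.11% of all genes) and none rose: HERPUD1, a component of ER-associated degradation (log2 fold change -0.61, SE 0.034, adjusted p = 7.16e-12), and WARS1, the tryptophanyl-tRNA synthetase (log2 fold change -0.23, SE 0.036, adjusted p = 0.000122). Both also fell with siXBP1 (log2 fold change -0.25, SE 0.037, adjusted p = 9.83e-06 and log2 fold change -0.18, SE 0.037, adjusted p = 0.000565).

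The reported CHOP targets gave 5 rises (62.5%) and 1 fall (12.5%) with siXBP1 among 8 tested of 9, with a median log2 fold change of 0.19. Of all genes, 16.5% rose and 18.2% fell. BBC3, which encodes the cell death protein PUMA, measured 7.86, 8.39, 8.19 and 7.12 CPM in siCtrl and 15, 13.7, 17.3 and 13.3 CPM in siXBP1 and rose (log2 fold change 0.91, SE 0.089, adjusted p = 3.33e-08). KLF6, TNFRSF10B, PMAIP1 and BCL2L11 were the other four that rose, the last 3 named after their values were seen (0.21, 0.28 and 0.17 on the log2 scale). The fall was that of ERO1A, the oxidase that forms disulfide bonds in the ER, with 43.3, 41.6, 43.4 and 47.1 CPM in siCtrl and 24.3, 26.7, 25.4 and 24.5 CPM in siXBP1 (log2 fold change -0.80, SE 0.054, adjusted p = 6.86e-11). KLF6, a zinc finger transcription factor, was the 1 CHOP target past the test with MKC8866 (log2 fold change 0.27, SE 0.04, adjusted p = 5.7e-05). That was 12.5% of the 8 tested, beside 1.36% of all genes. KLF6 rose with siXBP1 as well (log2 fold change 0.41, SE 0.045, adjusted p = 1.72e-07).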

How the data were processed

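Per the labels and the methods of the study, the authors sequenced stranded libraries from both ends, mapped them to GRCh38 with STAR (version 2.5.2a in the submitters' processing notes) and counted with featureCounts 1.5.0 on an Ensembl annotation. The deposited values are fragment counts per gene, not normalized. The command in the file counted without regard to strand and left out multimapping fragments and fragments over 2 genes, so that genes that overlap on opposite strands lose fragments and genes with close copies can be undercounted (ATF4, ASNS, PSAT1, PSPH, SLC7A5 and XPOT have annotated pseudogenes).

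Counts from 28713607 to 34509488 per library were analysed in R 4.3.3 with edgeR 4.0.16 (TMM, quasi-likelihood F test, two-sided), in a separate model for each treatment and its control. A gene was tested if, in each of the groups, some library held over 5 counts of it, and a call needed a Benjamini-Hochberg adjusted p under 0.05 across the genes tested. SEs and 95% intervals were derived from each log2 fold change with its F statistic. Differences between the responses, and siCtrl against Vehicle, were tested in a fit of all 16 libraries on genes passing both filters. Replicate spread set the precision for most of the 35 genes, and counting error mattered for ALDH1L2 and FGF21. CPM were scaled by TMM over the 16 libraries.

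Alternatives were DESeq2 1.42.0 (the tool of the study), DESeq2-style size factors, library totals alone, other filters on low counts, a block for the replicate number, 1 joint fit of the 16 libraries for the treatment comparisons, a threshold of 0.01, and the removal of each library. Library values are given for ATF4, DDIT3, ATF3 and PPP1R15A, and for genes called with an absolute log2 fold change of at least 0.3 or in the interaction. Of each further list, the 2 called genes with the largest change per treatment are named. The 35 genes, the lists, the markers and the tests were chosen with earlier results of these data known. Promoter sequences are those of RefSeq (GRCh38.p14), where VEGFA, SLC7A11, NUPR1, GPT2, ALDH1L2, PYCR1 and PSPH had no entry. Figures were drawn with matplotlib 3.10.9.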

Additional observations from a re-analysis of the deposited data

Results flagged for a closer look

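In 10 of 140 sets of 4 libraries (35 genes in 4 groups), 1 library lay far from the other three by Dixon's test, which chance does in about 1 in 20 sets. In siCtrl these were replicate 2 for DDIT3 (171 CPM), replicate 3 for GPT2 (318 CPM) and replicate 4 for VEGFA (562 CPM). In Vehicle they were replicate 1 for DDIT4 (577 CPM) and replicate 4 for ATF3 (848 CPM). In MKC8866 they were replicate 2 for PYCR1 (301 CPM), ALDH18A1 (167 CPM) and SLC7A5 (42.1 CPM), and replicate 4 for PSPH (118 CPM) and CBS (112 CPM). None was in siXBP1. The calls for DDIT3, ATF3, PSPH, ALDH18A1, SLC7A5 and VEGFA in siXBP1 against siCtrl and in the difference between the responses remained without any 1 library.

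The responses to siXBP1 and MKC8866 differed in the interaction test for 20 of the 35 genes. On the log2 scale, the response to siXBP1 minus that to MKC8866 was 1.28 for FGF21, 0.85 for CEBPB, 0.55 for DDIT3, 0.43 for XPOT, 0.38 for ATF5, 0.37 for PSPH, 0.34 for SLC1A5, 0.31 for SLC7A5, 0.26 for SLC3A2, 0.26 for JDP2, 0.24 for VEGFA, 0.20 for SESN2, 0.17 for NUPR1 and 0.16 for CEBPG. It was -1.06 for SLC1A4, -0.52 for ATF3, -0.50 for SLC7A1, -0.49 for SLC38A2, -0.32 for PSAT1 and -0.23 for ALDH18A1. In the tests of each treatment, SLC1A4 passed in both, with a fall under siXBP1 and a rise under MKC8866.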

How the results depend on the processing

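No call among the 35 genes reversed in any comparison under any alternative, although 54 fold changes that passed the threshold in neither fit changed sign. In siXBP1 against siCtrl the counts of 16 higher and 8 lower genes ran from 16 to 18 and from 7 to 8 without 1 library, and their median log2 fold change from 0.08 to 0.12; with library totals alone the median was 0.14 and the call for PYCR1 was lost. DESeq2, library totals and a minimum of 10 counts each added CHAC1 and STC2. In MKC8866 against Vehicle the 1 higher and 1 lower gene became 2 and 2 without the filter on low counts (adding SESN2 and SLC7A11), DESeq2 gave 2 lower, and the counts without 1 library were 1 to 2 in each direction, with a median from -0.016 to 0.0044. The median for siCtrl against Vehicle was -0.076 with library totals and -0.073 to -0.027 without 1 library, with 2 to 3 genes higher and 7 to 9 lower, and at an adjusted p under 0.01 the lower genes were 6. The difference between the responses gave 11 to 15 higher and 6 lower genes without 1 library, with a median from 0.096 to 0.13. Causes of these shifts were not tested. With TTGCATCA alone, 6 genes had the octamer in place of 10.

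Replicate numbers were not taken as pairing the samples, since same-numbered libraries deviated together with correlations of 0.186, 0.328, 0.0808 and 0.200 in the inhibitor experiment and of at most 0.0607 in the knockdown experiment. In the former, 6 of 8 libraries correlated best with their own number, and in the latter 0 of 8. With a replicate block, MKC8866 against Vehicle gave 4 higher and 5 lower genes, adding DDIT3, ATF3, SESN2, PSAT1, SLC7A11, SLC3A2 and STC2. SESN2 was then higher and PSAT1 lower with both treatments, whereas DDIT3, ATF3 and SLC3A2, like SLC1A4, passed with both in opposite directions. The knockdown counts stayed at 16 and 8, and ATF4, PHGDH, GPT2 and SLC7A11 joined the difference between the responses.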

Other observations

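Within the list of further ATF4 targets, 2 sets of genes picked after their values were seen, and so described without a test, moved in both directions. Of 12 aminoacyl-tRNA synthetases, which charge tRNAs with amino acids, 5 rose and 2 fell with siXBP1, beside 16.5% and 18.2% of all genes. The share of falls was near that of all genes. Those for cysteine (CARS1, log2 fold change 0.21, SE 0.039, adjusted p = 0.000224), glycine (GARS1, log2 fold change 0.20, SE 0.036, adjusted p = 0.000128), isoleucine (IARS1, log2 fold change 0.18, SE 0.044, adjusted p = 0.0028), serine (SARS1, log2 fold change 0.13, SE 0.039, adjusted p = 0.0131) and asparagine (NARS1, log2 fold change 0.11, SE 0.04, adjusted p = 0.0377) rose. Those for leucine (LARS1, log2 fold change -0.42, SE 0.037, adjusted p = 6.81e-09) and tryptophan (WARS1, log2 fold change -0.18, SE 0.037, adjusted p = 0.000565) fell. WARS1 was the 1 synthetase that passed with MKC8866, while LARS1 did not (log2 fold change 0.03, SE 0.039, adjusted p = 0.838) and its responses to the 2 treatments differed (log2 difference -0.44, SE 0.052, adjusted p = 1.31e-07).

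Of a set of 6 genes, KLHL24 and genes of autophagy and the antioxidant response, 4 rose and 1 fell with siXBP1. Of all genes, 16.5% rose and 18.2% fell. The autophagy receptor SQSTM1 (log2 fold change 0.24, SE 0.039, adjusted p = 3.07e-05), the autophagosome protein MAP1LC3B (log2 fold change 0.23, SE 0.043, adjusted p = 0.000218), the antioxidant regulator NFE2L2 (log2 fold change 0.26, SE 0.043, adjusted p = 4.84e-05) and KLHL24 (log2 fold change 0.20, SE 0.058, adjusted p = 0.0106) rose. HMOX1, the haem oxygenase that NFE2L2 is known to activate, fell from 8.89 ± 0.343 to 6.7 ± 0.486 CPM (log2 fold change -0.41, SE 0.084, adjusted p = 0.00051). None of the 6 passed with MKC8866 in edgeR.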
